A study of Macaca mulatta with 30 samples.

Results

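The genes described here take part in how a cell answers a corticosteroid, and are followed by RNA level in fetal lung and hippocampus. They are 2 receptors, NR3C1 (the glucocorticoid receptor) and NR3C2 (the mineralocorticoid receptor), and 3 enzymes of cortisol metabolism, HSD11B1, HSD11B2 and H6PD. They were chosen by Ensembl rhesus symbol, and 4 of the 5 were matched in both count tables, among 30246 lung and 32386 hippocampus gene identifiers. The matched genes were NR3C1 (ENSMMUG00000000421), NR3C2 (ENSMMUG00000014955), HSD11B2 (ENSMMUG00000008034) and H6PD (ENSMMUG00000016711). Each of these 4 passed the minimum of 7 reads in both tissues. HSD11B1 was not analysed here, because its identifier was matched in neither table, so no value for the enzyme that regenerates cortisol can be given.

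RNA was sequenced from Rhesus macaque fetuses, labelled wild type for lung, whose mothers had 1 intramuscular injection. Lung came from 5 groups of 3 animals, which were saline controls, the clinical drug (Celestone, betamethasone phosphate with betamethasone acetate, 0.25 mg/kg) at 4 h and 5 days, and Beta-Ac (betamethasone acetate alone, 0.125 mg/kg) at 6 h and 5 days. Hippocampus came from 3 groups of 5 animals, which were controls and both drugs at 5 days. The lung labels give gestational days 124 to 130 for all animals, and the hippocampus labels give from 130 to 136 days. These labels disagree for the animals that have both tissues, whose hippocampus labels all lie above 130 days. They therefore do not show that the lungs came from younger fetuses. Dose and early time point both differ between the drugs, so a difference between drugs is also a difference in dose and, at the early time points, in hours. In the hippocampus labels the library names and the treatment and dose fields give opposite drugs. The dose field gives 0.25 mg/kg for the libraries named for Beta-Ac and 0.125 mg/kg for those named for the clinical drug. The library names were followed because they match the lung labels of the 6 treated animals that have both tissues. A total of 9 animals had a library of each tissue.

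Cortisol and betamethasone enter cells and bind NR3C1, which then moves to the nucleus and changes transcription. NR3C2 binds cortisol with higher affinity than NR3C1 does, and in the adult hippocampus it is known as the receptor occupied at low hormone levels, while NR3C1 fills under stress. HSD11B2 oxidises cortisol to inactive cortisone and so keeps cortisol from NR3C2 in epithelia that respond to aldosterone. HSD11B1 works in the other direction in the endoplasmic reticulum, and H6PD makes the NADPH there that this direction needs.

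Reads counted on genes ranged from 14.1 to 45.0 M reads per lung library and from 18.3 to 29.3 M reads per hippocampus library. Levels are CPM, read counts scaled to library depth with TMM normalization. Gene lengths were not used, so levels are compared between libraries and not between genes. To be called changed, a gene had to differ 1.5-fold or more in the quasi-likelihood test of edgeR, with p under 0.05 and an adjusted p under 0.1. P-values were adjusted after Storey (q) for lung and after Benjamini-Hochberg for hippocampus and for the comparison of tissues. A target gene of NR3C1 followed the injections in lung. FKBP5, a chaperone gene that NR3C1 switches on, lay between 5.27 and 5.83 CPM in controls, between 120.2 and 218.7 CPM at 4 h after the clinical drug and between 18.9 and 105.9 CPM at 6 h after Beta-Ac. It lay between 5.78 and 6.68 CPM in the 6 lungs taken at 5 days. Tissue labels matched their markers, since SFTPC and NKX2-1 of lung epithelium were at least 2708 and 172.6 CPM in all 15 lungs, and SFTPC was at most 0.428 CPM in all 15 hippocampi. Hippocampus libraries are called here by their names, which join the group to the end of the animal number, so that CTL, CEL and BAC stand for controls, the clinical drug and Beta-Ac.

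Among the 4 genes, 2 were called at 4 h after the clinical drug, with NR3C2 lower and HSD11B2 higher than in controls. Over all 17644 lung genes tested in this comparison 7.4% were called, 3.46% higher and 3.94% lower. NR3C2 was measured at 8.86, 10.5 and 12.7 CPM in the control lungs (animals 15-92, 15-101 and 16-113). At 4 h after the clinical drug it was measured at 7.78, 4.19 and 5.82 CPM (animals 15-81, 15-85 and 15-97). Every treated lung lay below every control. The share of all lung genes whose groups separate like this was not counted, in this or any later comparison, so no weight is put on such a separation. The mean was 5.93 ± 1.80 CPM (SD, n = 3) against 10.7 ± 1.95 CPM, and NR3C2 fell by 0.84 on the log2 scale (SE 0.227, edgeR Storey q = 0.0309), or 1.78-fold. Without control animal 16-113 the change was -0.69 and was not called (edgeR q = 0.124), and in a fit of these 2 groups alone the q was 0.122. In lung RNA as a whole, fewer cells of a type and less RNA per cell cannot be told apart.

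NR3C1 was measured at 74.2, 90.8 and 116.6 CPM in the same controls and at 82.8, 62.4 and 66.6 CPM at 4 h after the clinical drug. These ranges overlapped, with 1 treated lung above the lowest control. The log2 difference was -0.41 (SE 0.149, edgeR Storey q = 0.0940), a 1.33-fold lower mean level that stayed under the fold change asked for, so NR3C1 was not called. Both receptor genes were therefore lower in mean level at 4 h, and NR3C2 was the one that passed the call. Within a library the reads of NR3C1 can be set against those of NR3C2 without any scaling. This ratio lay between 8.37 and 9.15 in controls and between 10.6 and 14.9 at 4 h after the clinical drug. The 3 ratios at 4 h were above those of the other 12 lungs, whose highest was 9.44.

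**Figure D1:**
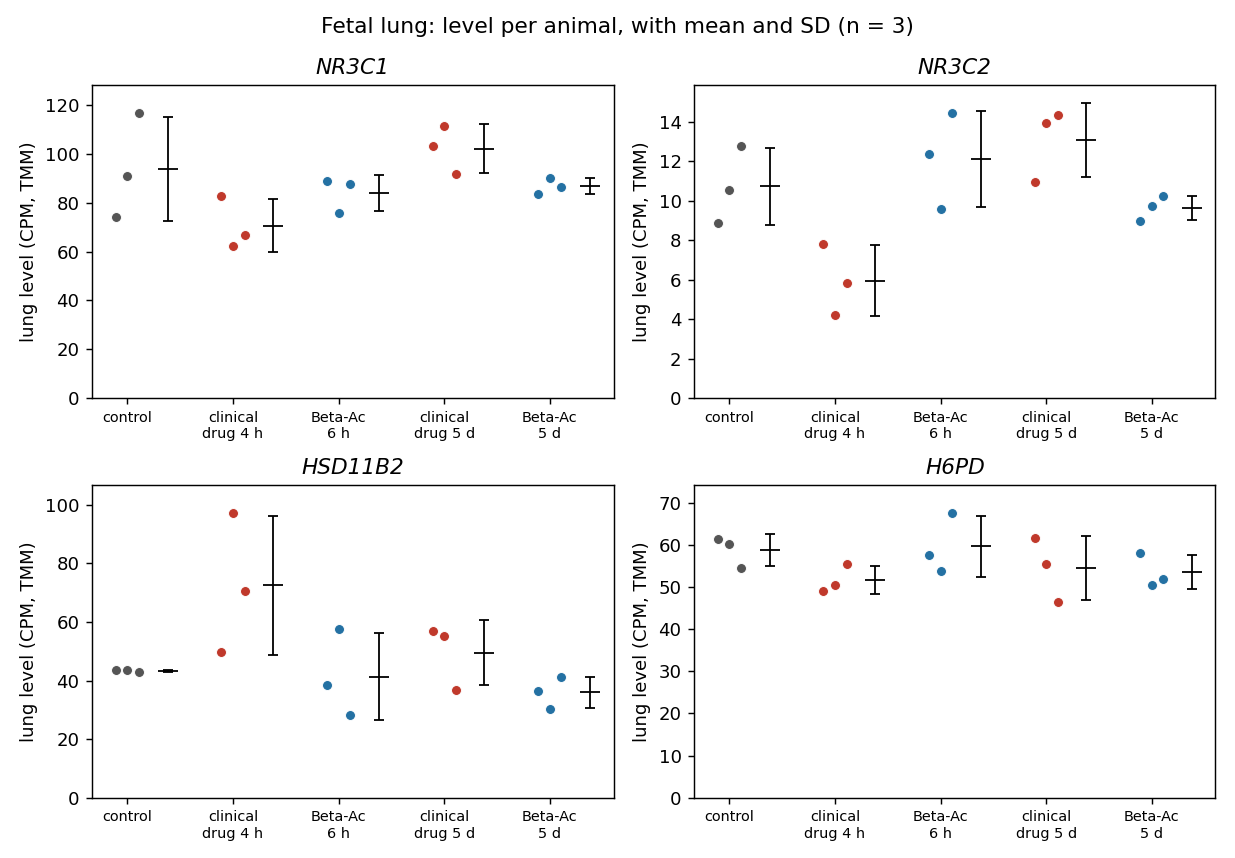
CPM of NR3C1, NR3C2, HSD11B2 and H6PD in each of 15 fetal lungs, with 1 point per animal, colours for control, clinical drug and Beta-Ac, and the mean with SD of 3 animals beside the points; the vertical axes start at 0. NR3C2 at 4 h after the clinical drug (4.19 to 7.78 CPM) lies below all other lungs, and HSD11B2 at 4 h spreads from 49.8 to 97.1 CPM above controls at 42.9 to 43.6 CPM.

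HSD11B2 moved the other way at 4 h. The enzyme was measured at 43.5, 43.6 and 42.9 CPM in controls, an SD of 0.397 CPM. At 4 h after the clinical drug it was measured at 49.8, 97.1 and 70.7 CPM in animals 15-81, 15-85 and 15-97. All treated lungs were above all controls, but they spread widely among themselves, with an SD of 23.7 CPM. HSD11B2 rose by 0.74 on the log2 scale (SE 0.262, edgeR Storey q = 0.0861), or 1.67-fold, with a 95% interval from 0.18 to 1.30. This call was lost without animal 15-85 (log2 change 0.46, edgeR q = 0.320), without animal 15-97 (q = 0.148) and without any 1 of the controls (q of 0.168 or more). It was also lost with no read filter (edgeR q = 0.130), with Benjamini-Hochberg adjustment (adjusted p = 0.126) and in a fit of these 2 groups alone. The lung with the highest HSD11B2, 15-85, also had the lowest NR3C2 and NR3C1 of the 15 lungs. It was the library with the fewest reads (14.1 M, of which 56 on NR3C2), and 15-81 of the same group had the most (45.0 M). The 6 immune markers of 15-85 summed to 36.4 CPM, against 83.5 to 124.1 CPM in the other 14 lungs, and 2 of the 6 were called lower and 1 higher at 4 h over the group (median log2 change -0.71). Without 15-85, NR3C2 differed from controls by -0.66 and was still called (edgeR q = 0.0877), and NR3C1 differed by -0.34. The part of immune cell content and of read depth in these values was not tested.

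HSD11B2 is an epithelial gene, and some lung epithelial genes moved in the same libraries. The summed level of the 8 epithelial markers lay between 7463 and 10815 CPM in controls and between 12964 and 18836 CPM at 4 h after the clinical drug, with 8 of 8 markers higher on average and 3 called. Most of that sum came from the surfactant protein genes SFTPC and SFTPB. SFTPC lay between 2708 and 5096 CPM in controls and between 5697 and 9645 CPM at 4 h. SFTPB lay between 3121 and 3775 CPM in controls and between 4112 and 6186 CPM at 4 h. EPCAM, a general epithelial surface gene, was measured at 133.8, 112.5 and 163.0 CPM in control animals 15-92, 15-101 and 16-113 and at 153.5, 177.1 and 123.8 CPM at 4 h in animals 15-81, 15-85 and 15-97. CDH1 lay between 50.7 and 76.2 CPM in controls and between 59.9 and 84.9 CPM at 4 h. EPCAM and CDH1 thus overlapped controls, as did NKX2-1 (172.6 to 276.3 CPM in controls and 250.3 to 294.9 CPM at 4 h). Of the 3 lungs at 4 h, 15-81 had the highest SFTPC and the lowest HSD11B2, while 15-85 had the highest EPCAM and the highest HSD11B2. The part of epithelial content in the HSD11B2 values was not tested.

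H6PD differed little at 4 h. It was measured at 61.4, 60.3 and 54.6 CPM in controls and at 49.0, 50.5 and 55.4 CPM at 4 h after the clinical drug, so the ranges overlapped. The log2 difference was -0.19 (SE 0.117, edgeR Storey q = 0.298), with an interval from -0.44 to 0.06. Of the 4 genes H6PD varied least between lungs of a group, with a within-group SD of 0.141 on the log2 scale. That of NR3C1 was 0.196, of NR3C2 0.284 and of HSD11B2 0.366, against a median of 0.251 over all lung genes tested.

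At 6 h after Beta-Ac, 0 of the 4 genes were called by edgeR, where 0.442% of all lung genes were. DESeq2 also called 0, and 0 had an unadjusted p under 0.05. NR3C1 was measured at 88.8, 75.7 and 87.6 CPM in animals 16-123, 16-131 and 17-254. NR3C2 was measured at 12.3, 9.59 and 14.4 CPM in the same animals and overlapped controls. HSD11B2 was measured at 38.4, 57.5 and 28.1 CPM, on both sides of the narrow control range, and H6PD at 57.6, 53.7 and 67.5 CPM. The log2 differences from controls were -0.16 (SE 0.148) for NR3C1, 0.17 (SE 0.223) for NR3C2, -0.07 (SE 0.261) for HSD11B2 and 0.02 (SE 0.116) for H6PD. Their intervals reach from -0.30 to 0.65 for NR3C2 and from -0.62 to 0.49 for HSD11B2, so 1.5-fold changes of these genes lie within them. The FKBP5 level differed among the 3 animals, at 18.9, 31.2 and 105.9 CPM in 16-123, 16-131 and 17-254.

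Set directly against each other, the early groups differed in 2 of the 4 genes, where 6.74% of all lung genes were called. NR3C2 was lower at 4 h after the clinical drug than at 6 h after Beta-Ac by a log2 difference of -1.01 (SE 0.226, edgeR Storey q = 0.0176), a 2.01-fold lower level with no overlap between the lungs. HSD11B2 was higher by 0.80 (SE 0.261, edgeR Storey q = 0.0609), although the Beta-Ac lung of animal 16-131 (57.5 CPM) was above the lowest clinical drug lung (49.8 CPM). This second call was lost when animal 15-85, 15-97, 16-123 or 17-254 was left out, with q from 0.118 to 0.225. In a fit of the 6 lungs alone neither gene was called (q = 0.119 for NR3C2 and 0.198 for HSD11B2). NR3C1 and H6PD gave differences of -0.25 (interval from -0.57 to 0.07) and -0.21 (interval from -0.46 to 0.04). The 2 groups received different doses and were delivered at different hours.

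At 5 days none of the 4 genes was called in lung after either drug. With the clinical drug edgeR called 0 of the 4, and 0% of all lung genes (775 had an unadjusted p under 0.05, and DESeq2 called 16, with 0 of the 4 among them). With Beta-Ac edgeR and DESeq2 again called 0 of the 4, where edgeR called 0.00567% of all lung genes, that is 1 gene. None of the 4 had an unadjusted p under 0.05 in either comparison. NR3C2 was measured at 10.9, 13.9 and 14.4 CPM at 5 days after the clinical drug and at 8.99, 9.72 and 10.2 CPM after Beta-Ac, around the control range of 8.86 to 12.7 CPM. NR3C1 lay between 91.6 and 111.5 CPM and between 83.6 and 90.3 CPM in the same groups. HSD11B2 was measured at 56.8, 55.2 and 36.7 CPM after the clinical drug and at 36.4, 30.4 and 41.1 CPM after Beta-Ac. The Beta-Ac lungs were all below the 3 controls, but the log2 difference of -0.27 (SE 0.261, edgeR Storey q = 0.856) was within the spread of the fit. H6PD lay between 46.4 and 61.6 CPM in these 6 lungs.

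The drugs were compared at the shared time of 5 days, at unequal doses. Here 0 of the 4 genes were called by edgeR or DESeq2, 0 had an unadjusted p under 0.05, and 0% of all lung genes were called by edgeR (556 had an unadjusted p under 0.05, and DESeq2 called 8). The clinical drug lungs were above the Beta-Ac lungs without overlap for both receptors, whose levels also went together over the 15 lungs (Pearson r = 0.816). The share of all lung genes that separate in this way was not counted, so no weight is put on it. NR3C1 differed by 0.23 (interval from -0.08 to 0.55) and NR3C2 by 0.44 (interval from -0.03 to 0.91) on the log2 scale. HSD11B2 differed by 0.46 (interval from -0.09 to 1.02) and H6PD by 0.03 (interval from -0.22 to 0.27). These intervals leave room for differences of 1.5-fold in NR3C2 and HSD11B2, so the drugs are not shown to act alike on them.

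Within the clinical drug, lungs at 5 days were compared with lungs at 4 h. A single gene of the 4, NR3C2, was called, where 10.4% of all lung genes were. It was higher at 5 days by 1.12 on the log2 scale (SE 0.226, edgeR Storey q = 0.00478), or 2.17-fold, with all 3 late lungs above all 3 early ones. This call held in each of 15 alternative analyses. NR3C1 was higher by 0.53 (SE 0.148, edgeR Storey q = 0.0247) and also did not overlap, but its 1.44-fold difference was under the fold change asked for. It passed that too without the early animal 15-81 (log2 difference 0.68) or the late animal 16-126 (0.62). HSD11B2 differed by -0.55 (SE 0.259, edgeR Storey q = 0.138) and was called only without the early animal 15-81 (-0.74, q = 0.0513). H6PD differed by 0.08 (interval from -0.17 to 0.33). Between 5 days and 6 h of Beta-Ac, 0 of the 4 genes were called by edgeR or DESeq2, where edgeR called 0.261% of all lung genes, and 0 had an unadjusted p under 0.05. There the log2 differences were 0.05 for NR3C1, -0.33 for NR3C2, -0.20 for HSD11B2 and -0.15 for H6PD, with SEs from 0.116 to 0.260.

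Ordered by mean level, NR3C2 was lowest at 4 h after the clinical drug (5.93 CPM), followed by Beta-Ac at 5 days (9.64), controls (10.7), Beta-Ac at 6 h (12.1) and the clinical drug at 5 days (13.1). Only the first step in this order had no overlap between neighbouring groups. For NR3C1 the order of means ran from the clinical drug at 4 h (70.6 CPM) over Beta-Ac at 6 h (84.0), Beta-Ac at 5 days (86.8) and controls (93.9) to the clinical drug at 5 days (102.1). All neighbours overlapped in this order and in those of HSD11B2 and H6PD. The order for HSD11B2 ran from Beta-Ac at 5 days (35.9 CPM) and 6 h (41.3) over controls (43.3) and the clinical drug at 5 days (49.5) to the clinical drug at 4 h (72.5). H6PD kept to a range of group means from 51.6 to 59.6 CPM.

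**Figure D2:**
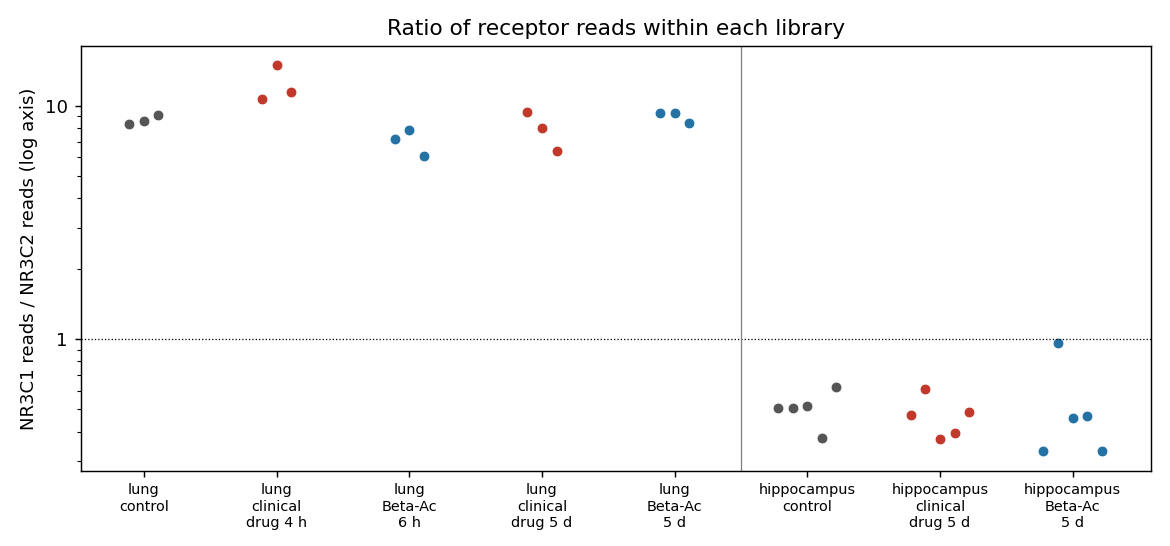
Reads of NR3C1 divided by reads of NR3C2 within each of 30 libraries on a log axis, with 1 point per animal and a dotted line at equal reads. Lungs lie between 6.08 and 14.9, highest at 4 h after the clinical drug, and hippocampi lie between 0.329 and 0.959, all below the line.

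In hippocampus at 5 days, 0 of the 4 genes were called for the clinical drug by edgeR, although 7.86% of all 17390 genes tested were, and 0 of the 4 had an unadjusted p under 0.05. DESeq2 called none of NR3C1, NR3C2 and H6PD. It gave HSD11B2 no adjusted p in any hippocampus comparison and so could not call that gene. NR3C2 lay between 42.5 and 53.5 CPM in controls (median 47.3, n = 5) and between 45.7 and 60.3 CPM after the clinical drug (median 56.4). NR3C1 lay between 20.1 and 27.6 CPM in controls (median 23.9) and between 21.2 and 28.5 CPM after the clinical drug (median 22.3). H6PD lay between 7.26 and 9.68 CPM in controls and between 7.41 and 11.2 CPM after the clinical drug. The groups overlapped for each gene. The log2 differences were 0.04 for NR3C1 (interval from -0.32 to 0.40), 0.16 for NR3C2 (interval from -0.29 to 0.60) and 0.11 for H6PD (interval from -0.27 to 0.49). With sequencing run as a block the difference for NR3C1 was -0.19 (SE 0.180) and that for NR3C2 0.14 (SE 0.293), and 2 of the 4 runs held control libraries only.

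After Beta-Ac edgeR called 0 of the 4 genes in hippocampus and 0% of all genes (2133 had an unadjusted p under 0.05, and DESeq2 called 149, with none of NR3C1, NR3C2 and H6PD among them). NR3C2 was uneven in this group, at 70.2, 49.6 and 51.9 CPM in BAC128, BAC136 and BAC237 and at 27.2 and 27.8 CPM in BAC130 and BAC235. The latter pair was below all other 13 hippocampi. NR3C1 was lowest in BAC235 (13.0 CPM) and BAC237 (17.1 CPM) and lay between 22.6 and 26.1 CPM in the other 3. The log2 differences from controls were -0.07 for NR3C2 (interval from -0.52 to 0.37), -0.23 for NR3C1 (interval from -0.59 to 0.13) and -0.07 for H6PD (interval from -0.45 to 0.31). Both libraries with low NR3C2 also had low PROX1, a marker of dentate granule neurons, at 11.9 CPM in BAC130 and 10.1 CPM in BAC235, where the other 13 hippocampi lay between 20.3 and 62.7 CPM. The part of dissection in these values was not tested. Without these libraries and CTL212, whose choroid plexus marker sum was 902 CPM against at most 17.9 CPM in the other 14 libraries, the difference for NR3C2 was 0.24 (edgeR adjusted p = 0.497). This set was left out after the data were seen and holds the lowest NR3C2 values, so the higher difference follows from the choice.

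HSD11B2 was at few reads in hippocampus except in 1 library. It had from 8 to 36 reads in the 5 controls, from 10 to 24 after the clinical drug, and 21, 15, 10, 398 and 33 after Beta-Ac in BAC128, BAC130, BAC136, BAC235 and BAC237. In CPM the controls lay between 0.397 and 1.44 (median 0.856) and the clinical drug group between 0.437 and 0.972 (median 0.619). BAC235 stood at 15.4 CPM, and the other 4 after Beta-Ac between 0.463 and 1.12 CPM. The log2 difference between Beta-Ac and controls was 2.19 (SE 0.846, edgeR Benjamini-Hochberg adjusted p = 0.326), the only 1 of the 4 genes with an unadjusted p under 0.05. Without BAC235 it was -0.10 (SE 0.404). After the clinical drug the difference from controls was -0.19 (interval from -2.06 to 1.68), with an SE of 0.879 that was 0.378 without BAC235, BAC130 and CTL212. This hippocampus also had the lowest H6PD (4.75 CPM) and NR3C1 of the 15.

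The drugs set against each other in hippocampus gave 0 called genes of the 4 and 0% of all genes by edgeR (2346 had an unadjusted p under 0.05, and DESeq2 called 186, with none of NR3C1, NR3C2 and H6PD among them). The log2 differences between the clinical drug and Beta-Ac were 0.27 for NR3C1 (interval from -0.09 to 0.62), 0.23 for NR3C2 (interval from -0.22 to 0.68) and 0.18 for H6PD (interval from -0.20 to 0.56). That of HSD11B2 was -2.38 (edgeR Benjamini-Hochberg adjusted p = 0.265) with an unadjusted p under 0.05, as for 1 of the 4 genes. With the 3 animals per group that also have a lung library, which leaves BAC235 out, it was 0.39.

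**Figure D3:**
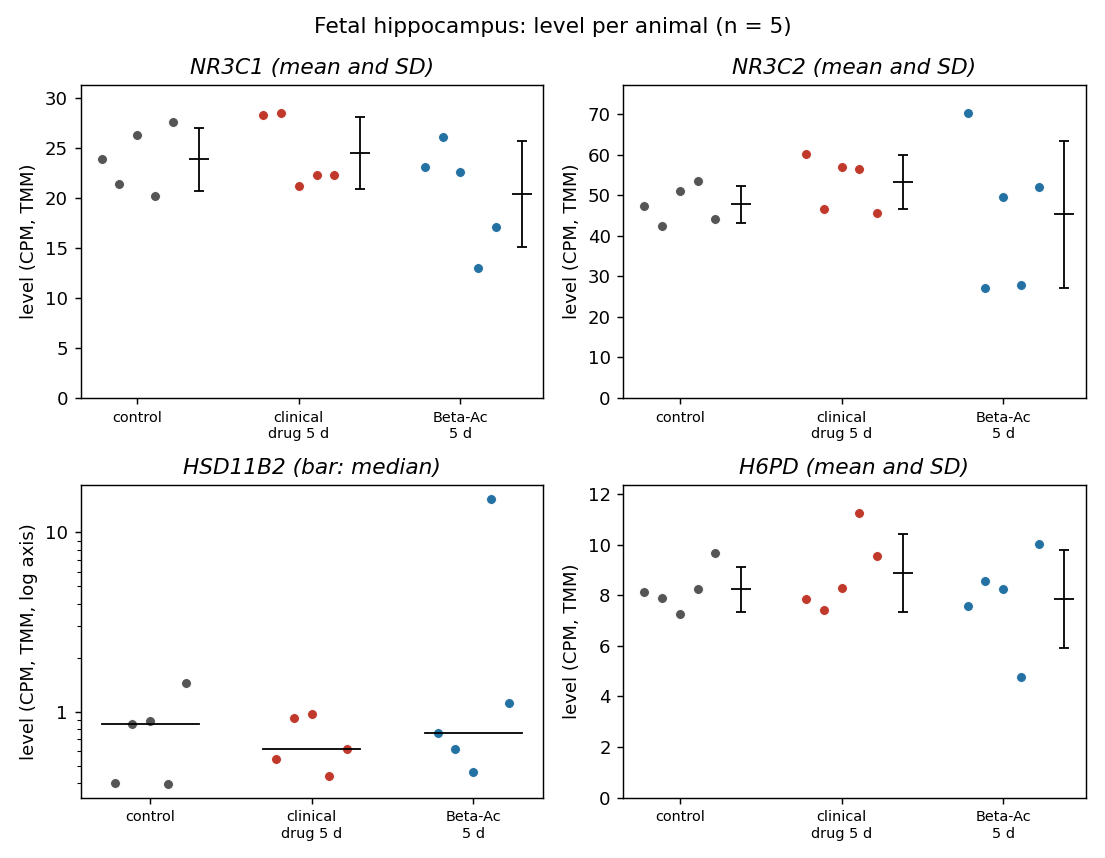
CPM of the 4 genes in each of 15 fetal hippocampi, with 1 point per animal, the mean and SD of 5 animals for NR3C1, NR3C2 and H6PD on axes from 0, and the median as a bar for HSD11B2 on a log axis. Groups overlap for each gene, and 1 Beta-Ac animal stands apart in HSD11B2 at 15.4 CPM.

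The 4 genes differed more between tissues than between drugs. In the 9 animals with both tissues, levels were compared in a single fit with animal as a block, on a scale shared by both tissues. All 4 genes were called in the saline animals, where 71.4% of all 15173 genes tested were called, so a call alone is not particular to these genes. NR3C1 was measured at 75.7, 91.9 and 122.5 CPM in the control lungs of animals 15-92, 15-101 and 16-113 and at 26.9, 24.3 and 29.9 CPM in their hippocampi. NR3C2 was measured at 9.05, 10.7 and 13.4 CPM in these lungs and at 53.2, 48.3 and 58.1 CPM in these hippocampi. The receptors thus stood in opposite order, with NR3C1 higher in lung and NR3C2 higher in hippocampus. NR3C1 was 3.52-fold lower in hippocampus (log2 difference -1.82, SE 0.117, edgeR adjusted p = 1.03e-07). NR3C2 was 4.86-fold higher there (log2 difference 2.28, SE 0.245, edgeR adjusted p = 6.92e-06).

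Both enzymes were lower in hippocampus. HSD11B2 was measured at 44.4, 44.1 and 45.0 CPM in the control lungs of 15-92, 15-101 and 16-113 and at 0.451, 0.972 and 1.00 CPM in their hippocampi. H6PD was measured at 62.7, 61.1 and 57.3 CPM in the same lungs and at 9.13, 8.97 and 8.25 CPM in the hippocampi. HSD11B2 was 54.3-fold lower in hippocampus (log2 difference -5.76, SE 0.285, edgeR adjusted p = 1.23e-08) and H6PD 6.87-fold lower (log2 difference -2.78, SE 0.128, edgeR adjusted p = 7.19e-09). Counting treated animals too, NR3C1 was from 2.81 to 4.09 times higher in lung in 9 of 9 animals, and HSD11B2 from 34.1 to 98.5 times. H6PD was from 5.07 to 6.99 times higher in lung in 9 of 9, and NR3C2 from 3.12 to 8.62 times higher in hippocampus in 9 of 9. The 4 calls held in each of 17 alternative analyses.

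Tissue cannot be told apart here from library preparation, sequencing run and gene annotation. The tables share 20572 identifiers, so the 2 were counted on different annotations, and a gene model that differs between them would shift a gene in all animals alike. HDAC1, a histone deacetylase used by most cells, also stood far apart, at 115.0 to 120.2 CPM in control lungs and at 2.57 to 3.96 CPM in control hippocampi, a log2 difference of -5.28 in the joint fit. The share of annotation in the tissue differences of the 4 genes was not tested. Ratios of reads avoid library scaling but not this limit. NR3C1 had from 6.08 to 14.9 times the reads of NR3C2 in all 15 lungs, while NR3C2 had from 1.04 to 3.04 times the reads of NR3C1 in all 15 hippocampi.

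**Figure D4:**
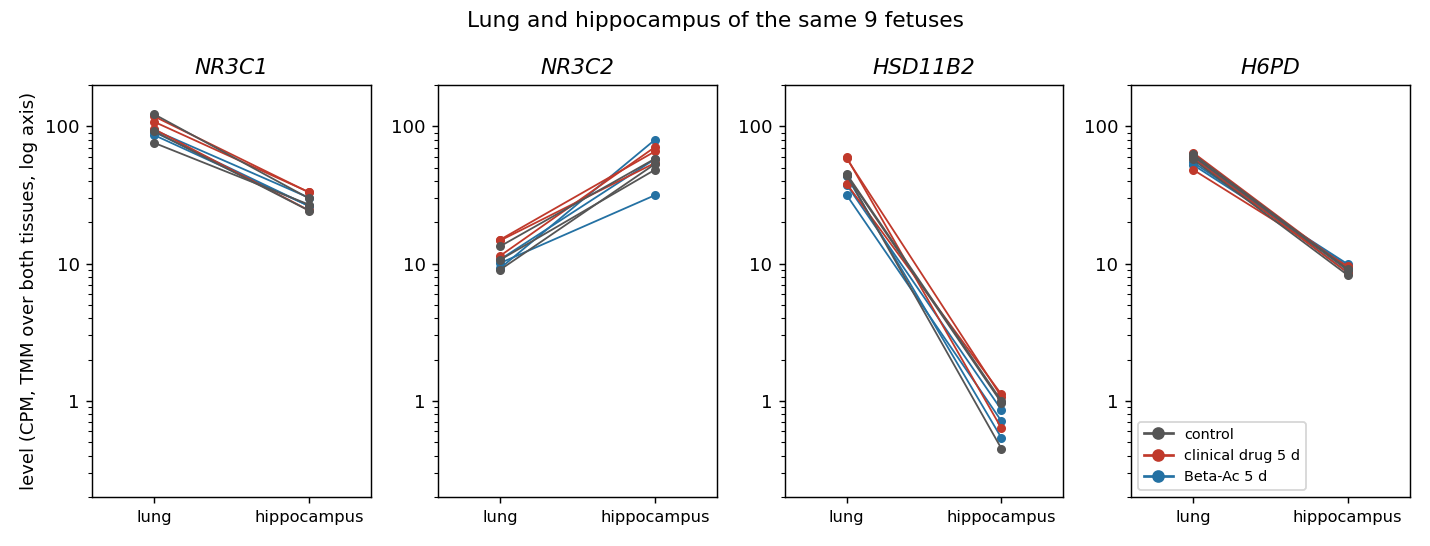
CPM on a log axis in lung and hippocampus of the same 9 fetuses, with each line joining the tissues of 1 animal and colours for control, clinical drug at 5 days and Beta-Ac at 5 days. NR3C1, HSD11B2 and H6PD fall from lung to hippocampus in 9 of 9 animals and NR3C2 rises in 9 of 9.

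Whether a drug changed these genes differently in the tissues was tested with the tissue by drug terms of the same fit, at 5 days. For the clinical drug 0 of the 4 genes were called by edgeR or DESeq2, where 4.95% of all genes were called by edgeR. For Beta-Ac 0 of the 4 and 0% of all genes were called by edgeR (2271 had an unadjusted p under 0.05, and DESeq2 called 546, with 0 of the 4 among them). None of the 4 had an unadjusted p under 0.05 in either term. The terms lay between -0.07 and 0.15 on the log2 scale for the clinical drug and between 0.07 and 0.21 for Beta-Ac, with SEs from 0.161 to 0.434. For HSD11B2 the intervals reach from -0.85 to 0.92 and from -0.89 to 1.03, so these terms are poorly fixed for the gene with few hippocampus reads.

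**Figure D5:**
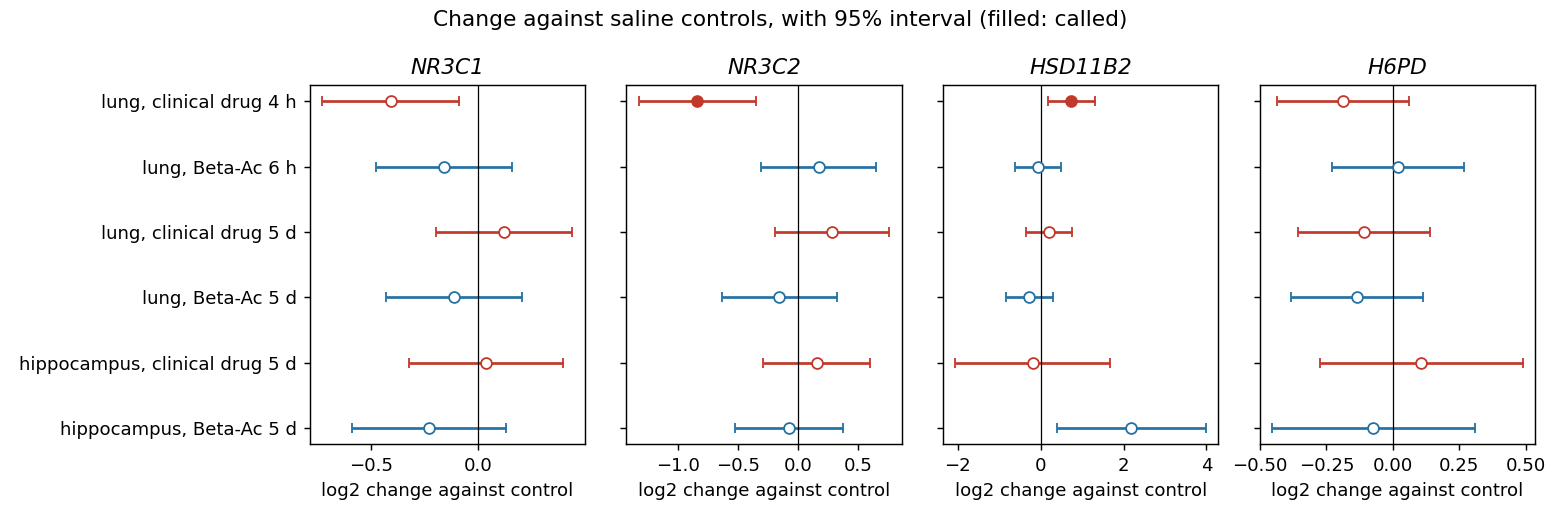
Log2 change of each gene against saline controls in the 4 lung and 2 hippocampus comparisons, with 95% intervals, filled points for called genes, and a separate horizontal scale in each panel. The filled points are NR3C2 (-0.84) and HSD11B2 (0.74) in lung at 4 h after the clinical drug, and the widest intervals are those of HSD11B2 in hippocampus.

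Genes around this set were taken from fixed lists. Steroid supply and clearance covers synthesis, reduction, transport and binding of steroids, with 31 genes listed and 15 tested in each tissue. In lung 0 of the 15 were called by edgeR in each of the 4 comparisons with controls, where at most 7.4% of all lung genes were. At 4 h the clinical drug gave the list a median log2 change of 0.00 against 0.02 over all genes tested. In hippocampus 1 of the 15 was called after the clinical drug, where 7.86% of all genes were called and 5.35% were called lower. HSD17B2, which oxidises estradiol and testosterone, lay between 0.506 and 1.51 CPM in controls and between 0.154 and 0.445 CPM after the drug, and fell by 1.96 on the log2 scale (SE 0.516, edgeR adjusted p = 0.0265), at 3 to 38 reads per library. Markers of neighbouring tissue moved the same way in this comparison, with 4 of 6 meninges markers called lower (median -1.53), 3 of 3 of choroid plexus (median -6.37) and 1 of 5 of striatum (median -1.20). Their sums lay between 103.8 and 1004 CPM, 1.48 and 902 CPM, and 57.5 and 178 CPM in controls, and between 59.1 and 239 CPM, 1.43 and 3.40 CPM, and 41.9 and 65.4 CPM after the drug. CTL212 had the highest control value of each sum, and without it HSD17B2 differed by -1.82 (edgeR adjusted p = 0.0429). The part of these tissues in the result was not tested. HSD11B1L, an HSD11B1-like gene that is not HSD11B1 itself, was called in lung between 5 days and 4 h after the clinical drug (log2 difference 0.61, edgeR Storey q = 0.0822) and lay 4.47 log2 units higher in control hippocampus than in lung.

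H6PD shares its substrate route with the pentose phosphate pathway, of which 13 listed genes were tested in lung and 14 in hippocampus. In each comparison with controls 0 of them were called by edgeR in either tissue, where at most 7.4% of all lung and 7.86% of all hippocampus genes were. The median log2 change of the list in lung at 4 h with the clinical drug was -0.15, with 11 of 13 below 0, against a median of 0.02 over all genes. SLC37A4, which carries glucose 6-phosphate into the endoplasmic reticulum, differed by -0.19 (SE 0.117, edgeR Storey q = 0.291). Between the tissues 5 of 13 genes were called higher and 3 lower in control hippocampus, where 36.8% of all genes were called higher and 34.6% lower, with NNT, a mitochondrial source of NADPH, higher by 1.90, while RPIA and RPE differed by -2.06 and -1.96 on the log2 scale and SLC37A4 by 0.04. The tissue by drug term of the clinical drug was called lower for 3 of the 13, where it was for 2.64% of all genes, which were TKT (-0.71), TALDO1 (-0.59) and PGLS (-0.66), named after their values were seen.

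Of the other steroid receptors of the NR3 family 6 were tested in each tissue. In lung 0 were called by edgeR in the 4 comparisons with controls, where at most 7.4% of all lung genes were. The median log2 change of the list was -0.04 at 4 h after the clinical drug. In hippocampus 1 of 6 was called after the clinical drug, where 7.86% of all genes were. ESR1, an estrogen receptor, lay between 0.320 and 1.35 CPM (8 to 27 reads) in controls and between 0.103 and 0.309 CPM (2 to 6 reads) after the drug, and fell by 2.07 on the log2 scale (SE 0.680, edgeR adjusted p = 0.0573). Meninges, choroid plexus and striatum markers were lower in the same comparison, as given for HSD17B2, and without CTL212 the difference of ESR1 was -2.26 (edgeR adjusted p = 0.0451), with the part of these tissues again not tested. Between the tissues 3 of 7 were called higher and 3 lower in control hippocampus, against 71.4% of all genes called, among them ESRRG, an orphan receptor, higher by 4.51, and the progesterone receptor PGR with a difference of -2.48, at 7 reads over the 3 control hippocampi and 31 over the 3 lungs.

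Coregulators carry the receptors' signal to the transcription machinery. Of 24 tested in lung 1 was called at 4 h after the clinical drug, where 7.4% of all lung genes were, with a list median of 0.05. NCOA3, a p160 coactivator of nuclear receptors, was measured at 114.5, 138.8 and 140.4 CPM in controls and at 237.7, 176.6 and 224.4 CPM at 4 h, and rose by 0.70 on the log2 scale (SE 0.144, edgeR Storey q = 0.00742). Its difference at 6 h after Beta-Ac was 0.46 (SE 0.143, edgeR Storey q = 0.224). In hippocampus 0 of 26 coregulators were called by edgeR after the clinical drug or Beta-Ac, where 7.86% and 0% of all genes were. The list medians were -0.28 after the clinical drug and -0.14 after Beta-Ac against -0.02 and -0.01 over all genes. Between the tissues 9 of 24 were called higher in control hippocampus, with GMEB1 higher by 2.72 and NCOA2 by 2.50, and 5 lower, HDAC1 among them, where 36.8% of all genes were called higher and 34.6% lower.

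Genes of the stress axis, which runs from hypothalamic peptides over the pituitary to the adrenal and back to the receptors, were mostly below the read minimum in lung. There 5 of the 11 in the table were tested and 0 were called by edgeR against controls, where at most 7.4% of all lung genes were. In hippocampus 9 were tested. CRHR1, the receptor of corticotropin-releasing hormone, lay between 9.16 and 24.8 CPM in control hippocampi and between 5.11 and 14.8 CPM after the clinical drug, and fell by 0.98 on the log2 scale (SE 0.296, edgeR adjusted p = 0.0419). In the same comparison 3 of 3 choroid plexus and 4 of 6 meninges markers were called lower. Without CTL212, which had the highest sums of both, the difference of CRHR1 was -1.15 (edgeR adjusted p = 0.0194), and the part of these tissues in it was not tested. CRHR1 was the only 1 of the 9 called, where 7.86% of all genes were. After Beta-Ac its difference was 0.05 (edgeR adjusted p = 0.960), with 0 of the 9 and 0% of all genes called. In the joint fit of both tissues a gene could pass the read minimum through its hippocampus reads, and only 5 of the list were tested in lung. For genes that passed in this way a higher level in hippocampus was set by the filter, so their count is no evidence about the list. Control hippocampus was higher than lung in 8 called genes of 9, where 36.8% of all genes were called higher. Among these were PCSK1, a prohormone convertase with 1967 reads over the 3 control hippocampi and 2 over the 3 lungs, AVPR1A, a vasopressin receptor with 241 and 1, and NR0B1, with 53 reads in hippocampus and none in lung, which makes it at least 14.1-fold higher against a floor of 3 reads over the group. In the steroid list CYP11A1, the first enzyme of steroid synthesis, had 490 reads over the 3 control lungs and none in hippocampus, at least 204.1-fold higher in lung against the same floor. CYP3A7, a fetal cytochrome that hydroxylates steroids, had 389 reads and 1, and SERPINA6, the corticosteroid-binding globulin of plasma, had 32 reads in hippocampus, all in 1 library, and none in lung.

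As a check of receptor activity, 5 targets of NR3C1 were tested in lung. At 4 h after the clinical drug and at 6 h after Beta-Ac 3 of 5 were called higher in each, where 3.46% and 0.368% of all lung genes were. FKBP5 rose by 4.94 and 3.21, the transcription factor ZBTB16 by 4.43 and 3.72 and the clock gene PER1 by 2.30 and 1.79 on the log2 scale, each with an edgeR Storey q from 4.84e-05 to 0.0191. At 5 days 0 of the 5 were called by edgeR in lung after the clinical drug or Beta-Ac, where 0% and 0.00567% of all lung genes were. In hippocampus at 5 days after the clinical drug 1 of 6 was called, where 7.86% of all genes were. This was CDKN1C, a cell cycle inhibitor that fell by 0.83 (edgeR adjusted p = 0.0720) and differed by -0.90 without CTL212. The part of neighbouring tissue was likewise not tested. FKBP5 differed by -0.33 (edgeR adjusted p = 0.388). These targets were known from earlier results of the same libraries and are no independent evidence.

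Finally, the genes whose level followed each gene most closely over the 15 libraries of a tissue were listed by Pearson r of log2 CPM, as a description over libraries that share groups. Of 11213 lung genes, DOP1B (r = 0.942) and ASXL2 (0.926) were nearest to NR3C1, and NHSL2 (0.945) and HMBOX1 (0.923) to NR3C2. ANKRD13B (0.891) and ITLN1 (0.864) were nearest to HSD11B2, and HDAC7 (0.816) and GM2A (0.800) to H6PD. Of 12041 hippocampus genes, PEAK1 (0.928) and ZNF106 (0.899) were nearest to NR3C1, GPR155 (0.909) and ARHGEF6 (0.907) to NR3C2, TRAF4 (0.912) and PSMG3 (0.903) to HSD11B2, and ZNF516 (0.889) and DUSP18 (0.853) to H6PD. The nearest genes of HSD11B2 in hippocampus were not looked for without BAC235. Among the 4 themselves, NR3C1 and NR3C2 had r = 0.816 in lung and 0.304 in hippocampus, and NR3C2 and HSD11B2 had r = -0.723 in lung.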

How the data were processed

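Lung and hippocampus were analysed from 2 tables of whole read counts per Ensembl gene, deposited by the authors without normalization. The authors made these counts with featureCounts after alignment. The submitters' processing notes name Bowtie 1.2.1.1 and featureCounts 1.5.1 for lung and Bowtie2 and featureCounts for hippocampus, while the paper gives Bowtie 2 and MMUL1.0 for the study as a whole. The hippocampus annotation is not given in the sources used here. Symbols came from a reference table and covered 52.1% of lung and 54.4% of hippocampus identifiers.

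Each tissue had 1 quasi-likelihood fit after TMM scaling (edgeR 4.0.16, R 4.3.3), and the animals with both tissues had 1 joint fit with animal as a block. Genes entered with 7 or more reads in 3 lung or joint libraries or in 5 hippocampus libraries. The prior count was 0.125 for fold changes and 2 for log2 CPM, and 95% intervals come from the moderated t distribution of the fit. P-values set a difference against the spread between animals of a group. In the joint fit they set it against how the difference between tissues varied from animal to animal. No replicate libraries agreed within counting noise (chi-square per degree of freedom at least 14.6).

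On simulated counts for lung at 4 h after the clinical drug, 69% of 2-fold and 95% of 4-fold changes were recovered, with 5.75% false calls. For hippocampus after the clinical drug these values were 77%, 98% and 8.85%, and for the comparison of tissues 76%, 96% and 5.49%. The genes, the lists and the tests were chosen with earlier results of these data known. Named genes were the members, the 2 nearest genes by Pearson r (mean of at least 1 CPM), up to 3 called genes per list and comparison, FKBP5 and PER1. HDAC1, EPCAM, CDH1, SFTPC, SFTPB, NKX2-1, PROX1, HSD11B1L, SLC37A4, OTX2, FOLR1, CLIC6, TKT, TALDO1 and PGLS were added after their values were seen. Alternatives were RLE scaling, other filters, no fold threshold, the likelihood ratio test, DESeq2 1.42.0, the other adjustment, only the groups compared, sequencing run or gestational age as a covariate, subsets of hippocampus libraries, the drugs as given in the treatment field, no animal block, and each animal left out. Leaving out the hippocampus libraries CTL212, BAC130 and BAC235 together, leaving out CTL212 for list genes and using unadjusted p were added after seeing the data. The values of 1 listed gene are not reported here.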

Additional observations from a re-analysis of the deposited data

Results flagged for a closer look

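Libraries far from the other 4 of their group were looked for in 15 combinations of hippocampus group and measure, and chance alone marks about 1 in 20. HSD11B2 in the Beta-Ac hippocampus library BAC235 was one, at 15.4 CPM, with a gap to the next library of 0.956 of the group's range against a critical value of 0.71. That library also had the second highest choroid plexus marker sum of the 15, 17.9 CPM, of which OTX2, a gene of choroid plexus and midbrain, made up 14.3 CPM and FOLR1 3.32 CPM, while CLIC6 of the same list was at 0.270 CPM, within the range of the other 14. The choroid plexus sum was 902 CPM in control CTL212, whose HSD11B2 was 1.44 CPM, the second highest of the 15. The part of choroid plexus tissue in either HSD11B2 value was not tested.

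The other was the ratio of NR3C1 to NR3C2 reads in the Beta-Ac hippocampus library BAC130, at 0.959, with a gap of 0.782 of the group's range against the same critical value. NR3C2 was 27.2 CPM in this library and NR3C1 26.1 CPM, the latter within the control range. Its PROX1 was 11.9 CPM, its summed meninges markers 558 CPM, the highest of the Beta-Ac group, and its summed striatum markers 149 CPM, against 42.8 to 70.8 CPM in the other 4 of that group. The part of dissection in this ratio was not tested.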

How the results depend on the processing

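Of 241 alternative counts of called genes 225 stayed within 1.5 times the main count and 16 moved, and of 961 single values 916 kept their call and direction or differed by less than 1 SE, 16 lost a call, 5 gained one and 24 changed sign and differed by 1 SE or more. In all 62 changed sign, 0 of them called, among them HSD11B2 in hippocampus for Beta-Ac (2.19, and -0.10 without BAC235). At 4 h after the clinical drug against controls (2 called), 3 were called with no fold threshold, 1 with no read filter, 1 with Benjamini-Hochberg adjustment and 0 in a fit of the 2 groups only, and with 1 animal left out the count ranged from 0 (without control 16-113) to 2. For the clinical drug at 4 h against Beta-Ac at 6 h (2 called), the count was 0 in a fit of the 2 groups only and ranged from 1 to 2 with 1 animal left out. For the clinical drug at 5 days against 4 h (1 called), it was 2 with no fold threshold and ranged from 1 to 3 (without 15-81) with 1 animal left out. In these cases the cause was not tested, except that a missing animal or group leaves fewer samples. The other 11 comparisons kept their counts under every alternative run, at 4 for tissue and at 0 elsewhere. With the drugs as given in the treatment field the hippocampus values of the drugs are exchanged, so that 2.19 for HSD11B2 belongs to the clinical drug and its difference between the drugs turns from -2.38 to 2.38. Leaving out the animal block from the tissue comparison kept all 4 calls. HSD11B2 in hippocampus had from 8 to 36 reads outside BAC235, and DESeq2 gave it no adjusted p. The cause was not tested. No paired analysis was possible because replicate numbers do not pair animals across drug groups, and the animal block was used only between tissues.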
